A study of Mus musculus with 2 samples.

Results

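The genes around Kdm2b were taken as all entries of the deposited RNA-seq table whose listed locus overlaps a 3 Mb stretch of mouse chromosome 5 in mm9, 58 of 13620 genes. They run from Aldh2, which starts at 122017718, to Tmed2, which ends at 125000505. Kdm2b, listed under its older symbol Fbxl10, is the gene altered in the mutant cells and lies from 123320688 to 123439832. Polyadenylated RNA came from embryonic stem (ES) cells of genotype Fbxl10 T/T and of wild type (WT), 1 library each. Both are of strain C57BL/6J and were grown with serum and LIF on mitotically inactivated mouse embryonic fibroblasts, which were then depleted by plating. The labels give neither the part of Kdm2b that the T allele alters nor the number of independent cell lines or cultures behind each library, so a difference between the libraries may belong to the genotype, the line, the culture or the library preparation, and these cannot be told apart. No difference was tested, and "higher" and "lower" describe these 2 libraries.

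The protein encoded by Kdm2b binds unmethylated CpG islands through a CXXC zinc finger and brings the variant Polycomb complex PRC1.1 to them. It also has a JmjC demethylase domain and an F-box. The comparison asks whether differences in RNA level between the libraries gather near the altered locus. P2rx7, which lies in this stretch, encodes a channel opened by extracellular ATP that passes cations, and its neighbour P2rx4 encodes a channel of the same P2X family. P2rx7 was known beforehand to be among the genes with the lowest ratios in these libraries, so its level is given as a description.

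The promoters of P2rx7, P2rx4 and Kdm2b are shown because P2rx7 and P2rx4 adjoin each other and differed in opposite directions, and because the Kdm2b protein recognises CpG. Each sequence is 300 bases, with 250 before and 50 after a RefSeq transcription start, in build GRCm38.p6 (the coordinates of the expression table are mm9 and are not on the same scale), and every CG is in capitals. P2rx7 has a RefSeq start at the beginning of the gene (chr5:122643677-122643976, plus strand) and a further one downstream (chr5:122650133-122650432, plus strand). P2rx4 has 1 (chr5:122707294-122707593, plus strand). For Kdm2b, the upstream start with the most CG (chr5:122989050-122989349, minus strand) and the internal start with the most CG (chr5:122900301-122900600, minus strand) are shown.
P2rx7, first start: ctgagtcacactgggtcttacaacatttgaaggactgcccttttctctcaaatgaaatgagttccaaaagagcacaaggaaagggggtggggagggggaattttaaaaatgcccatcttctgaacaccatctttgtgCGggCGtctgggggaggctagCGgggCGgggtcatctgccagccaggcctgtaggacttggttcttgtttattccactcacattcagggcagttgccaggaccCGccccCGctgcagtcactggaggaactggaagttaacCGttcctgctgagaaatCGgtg
P2rx7, downstream start: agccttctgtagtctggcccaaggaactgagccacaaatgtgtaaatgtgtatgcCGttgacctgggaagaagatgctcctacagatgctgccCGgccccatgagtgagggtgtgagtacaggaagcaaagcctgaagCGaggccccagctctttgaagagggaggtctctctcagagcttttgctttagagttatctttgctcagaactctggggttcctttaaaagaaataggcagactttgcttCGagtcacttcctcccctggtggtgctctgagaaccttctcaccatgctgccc
P2rx4: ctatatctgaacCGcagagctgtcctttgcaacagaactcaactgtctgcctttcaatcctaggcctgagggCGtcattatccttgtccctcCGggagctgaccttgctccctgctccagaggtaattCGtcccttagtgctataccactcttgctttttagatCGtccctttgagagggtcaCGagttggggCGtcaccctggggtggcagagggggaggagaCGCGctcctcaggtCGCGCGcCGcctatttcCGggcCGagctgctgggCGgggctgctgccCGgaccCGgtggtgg
Kdm2b, upstream start: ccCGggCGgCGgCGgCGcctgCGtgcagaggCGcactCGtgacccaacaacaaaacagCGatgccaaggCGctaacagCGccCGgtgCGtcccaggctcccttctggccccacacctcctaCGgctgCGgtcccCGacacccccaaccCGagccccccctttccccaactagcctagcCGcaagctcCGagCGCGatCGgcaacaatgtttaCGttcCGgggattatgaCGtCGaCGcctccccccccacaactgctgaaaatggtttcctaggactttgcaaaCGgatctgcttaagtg
Kdm2b, internal start: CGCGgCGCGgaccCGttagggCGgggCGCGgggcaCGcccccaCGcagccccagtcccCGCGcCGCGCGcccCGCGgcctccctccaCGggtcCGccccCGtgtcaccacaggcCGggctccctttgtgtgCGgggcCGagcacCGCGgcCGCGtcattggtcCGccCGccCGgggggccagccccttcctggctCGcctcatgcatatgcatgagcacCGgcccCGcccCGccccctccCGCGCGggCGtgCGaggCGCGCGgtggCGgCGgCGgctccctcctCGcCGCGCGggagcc
The P2rx7 promoters held 8 and 4 CG, that of P2rx4 held 18, and those of Kdm2b held 28 at the upstream and 49 at the internal start. The ratio of observed to expected CpG was 0.380 and 0.200 for P2rx7, 0.659 for P2rx4, and 0.966 and 0.996 for Kdm2b.

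Values are gene read counts scaled by the authors to 1000000 reads of an effective library size, called normalised CPM here. The table held 27109446 reads in Fbxl10 T/T and 21198574 in WT, of which the 58 genes took 85268 and 78128. All 58 reached 1 CPM in at least 1 library, and 50 had at least 100 reads in both. The listed ratio of a gene is log2 of (Fbxl10 T/T CPM + 0.5) over (WT CPM + 0.5), which understates the differences of low genes. The 1.5-fold, 2-fold and 4-fold rules were applied to this ratio. Folds printed for single genes are ratios of CPM without the 0.5. Intervals are exact 95% Clopper-Pearson intervals on the reads and cover counting error at most. With 1 library per genotype they hold no spread between lines, cultures or preparations. PCR copies are not independent molecules, so the intervals may be too narrow even for counting error. The libraries differed in marker genes of ES cells and of primitive endoderm. Over all genes 20.6% were at least 2-fold lower in Fbxl10 T/T and 14.8% at least 2-fold higher. Of 8 ES cell markers 6 were at least 2-fold lower and none higher, with a summed level of 995.6 CPM in Fbxl10 T/T against 5231 CPM in WT. All 8 primitive endoderm markers were at least 2-fold higher, with a sum of 31830.5 CPM in Fbxl10 T/T against 2996 CPM in WT. Most of both sums came from Col4a1 (18445 CPM in Fbxl10 T/T, 1862 in WT) and Lama1 (10036 and 823). Of 8 fibroblast markers, which would show feeder RNA, 1 was lower and none higher, with sums of 413.5 CPM in Fbxl10 T/T and 495.4 CPM in WT. No marker was at 0, and the part of these cell-state differences in the values below was not tested. In such bulk RNA, fewer cells of a type and less RNA per cell cannot be told apart.

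Kdm2b had 10.6 CPM (262 reads) in Fbxl10 T/T and 102.5 CPM (2449 reads) in WT. The Fbxl10 T/T level was 10.3% of the WT level, with an interval of 9.08 to 11.8%, and the log2 ratio was -3.21. Of the 13512 genes at 1 CPM or more, 289 (2.14%) had a log2 ratio as low or lower. The value is for the whole gene and may include reads from a part the T allele leaves intact. Kdm2b shares 470 bases at its upstream end with A930024E05Rik, a non-coding antisense gene on the opposite strand, and the strand setting of the counting is not given in the sources used here, so their reads cannot be told apart there. A930024E05Rik itself had 1.98 CPM (49 reads) in Fbxl10 T/T and 3.52 CPM (84 reads) in WT, a 1.77-fold lower level with an interval of 1.23 to 2.57.

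P2rx7 (ENSMUSG00000029468, 123093920 to 123141441) lay 179.2 kb from Kdm2b on the lower-coordinate side and had the lowest log2 ratio of the 58 genes, -4.50. It had 0.608 CPM (15 reads) in Fbxl10 T/T and 24.5 CPM (585 reads) in WT. Its level in Fbxl10 T/T was 2.48% of that in WT, and the 15 reads give an interval of 1.38 to 4.13%.

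The genes on either side of P2rx7 were not low. Ift81, a subunit of the intraflagellar transport complex that builds cilia, ends 29.4 kb before P2rx7 and had 2.998 CPM (74 reads) in Fbxl10 T/T and 2.05 CPM (49 reads) in WT. P2rx4 begins 16.2 kb after P2rx7 and had 77.3 CPM (1908 reads) in Fbxl10 T/T and 28.3 CPM (675 reads) in WT. P2rx4 was thus 2.73-fold higher (interval 2.50 to 2.99), in the opposite direction to the channel gene beside it. Per kilobase of annotated exon (GENCODE M21 lengths), P2rx7 was at 0.102 CPM in Fbxl10 T/T and 4.10 in WT, and P2rx4 at 11.0 in Fbxl10 T/T and 4.02 in WT, so the pair was near equal in WT and far apart in Fbxl10 T/T. The difference between the log2 ratio of P2rx7 and the mean of those of its 2 adjacent listed genes was -5.44, most of which is the ratio of P2rx7 itself. Of the 7 P2X genes 4 were listed, and 3 of these were at least 2-fold lower, beside 20.6% of all genes. They were P2rx7, known beforehand to be low, and both that lie elsewhere in the genome, which had few reads. All 3 had fewer than the 28 reads in Fbxl10 T/T that list a gene and were listed only through WT, where they were higher. The count is therefore shaped by the listing rule and is not read as a trait of the family. P2rx3 on chromosome 2 was 5.84-fold lower and had 1.05 CPM (26 reads) in Fbxl10 T/T and 6.16 CPM (147 reads) in WT. P2rx5 on chromosome 11 was 6.55-fold lower and had 0.365 CPM (9 reads) in Fbxl10 T/T and 2.39 CPM (57 reads) in WT. Among the 4, P2rx4 alone was higher.

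All 4 genes that GENCODE M21 places between P2rx7 and Kdm2b as protein-coding were listed, and none was 2-fold lower. After P2rx4 comes Camkk2, a kinase that activates CaM kinases and AMPK, with 14.8 CPM (365 reads) in Fbxl10 T/T and 13.8 CPM (329 reads) in WT. Its ratio of 1.07 has an interval of 0.922 to 1.25 that includes equality. Anapc5, a subunit of the anaphase-promoting complex, had 241.5 CPM in Fbxl10 T/T and 322.4 CPM in WT, 1.34-fold lower. Rnf34, an E3 ubiquitin ligase gene that ends 1.73 kb from Kdm2b, had 37.3 CPM in Fbxl10 T/T and 54.8 CPM in WT, 1.47-fold lower (interval 1.35 to 1.60). Along this stretch the levels therefore ran from far lower at P2rx7, through higher at P2rx4 and near equal at Camkk2, to modestly lower beside Kdm2b.

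On the other side of Kdm2b, past A930024E05Rik, Orai1 and Gm6444 were within 2-fold. Orai1, the pore subunit of store-operated calcium channels, begins 25.3 kb away and had 27.2 CPM in Fbxl10 T/T and 29.1 CPM in WT, and the interval of its ratio, 0.838 to 1.04, includes equality. Gm6444, a processed pseudogene whose reads may belong to a parent gene, had 39.6 CPM in Fbxl10 T/T and 32.7 CPM in WT. Tmem120b was higher, with 23.9 CPM (589 reads) in Fbxl10 T/T and 8.33 CPM (199 reads) in WT, a ratio of 2.86 (interval 2.43 to 3.38). Setd1b, which encodes a histone H3 lysine 4 methyltransferase, was the other lower gene here, with 29.0 CPM (717 reads) in Fbxl10 T/T and 67.1 CPM (1602 reads) in WT, 2.31-fold lower (interval 2.11 to 2.53). Psmd9, a chaperone of proteasome assembly, had 69.6 CPM in Fbxl10 T/T and 46.0 CPM in WT. Of the 12 listed genes within 300 kb other than Kdm2b and P2rx7, 2 were at least 2-fold higher, 1 was at least 2-fold lower and 9 lay in between, with log2 ratios of -1.19 to 1.46. Over all genes 14.8% were at least 2-fold higher and 20.6% at least 2-fold lower.

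**Figure D1:**
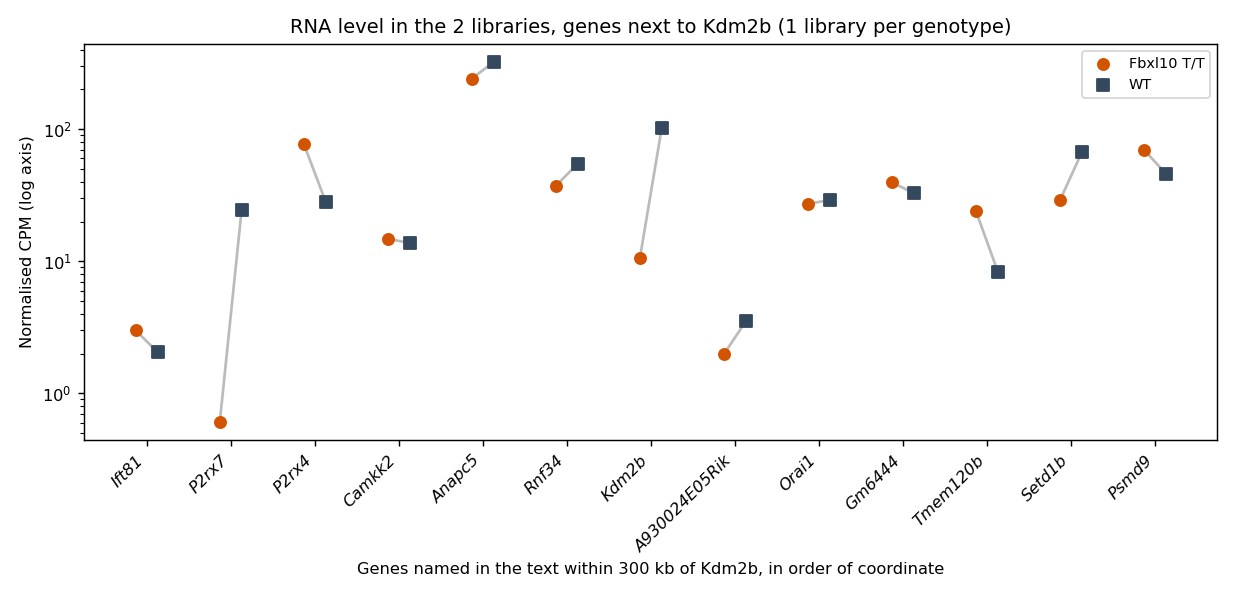
Normalised CPM (log axis) of the genes named in the text within 300 kb of Kdm2b, in order of coordinate, with 1 circle for the Fbxl10 T/T library and 1 square for the WT library per gene and no replicates. P2rx7 (0.608 against 24.5 CPM) and Kdm2b (10.6 against 102.5 CPM) are lower in Fbxl10 T/T, while P2rx4 (77.3 against 28.3 CPM) stands higher there.

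Over the whole stretch the genes differed between the libraries no more often than genes elsewhere, with 29.3% past 2-fold in either direction beside 35.3% of all genes. At the 2-fold rule 7 of 58 genes (12.1%) were lower in Fbxl10 T/T, beside 20.6% of all 13512 genes, and 10 (17.2%) were higher, beside 14.8%. At 4-fold 3 were lower and 2 higher, beside 9.1% and 3.84% of all genes, and at 1.5-fold 13 were lower and 16 higher, beside 28.7% and 26.5%. The median log2 ratio was 0.10 (quartiles -0.39 and 0.63) against 0.02 (quartiles -0.74 and 0.63) over all genes, and the median size of the log2 ratio without its sign was 0.59 against 0.68. When the libraries were scaled to a common upper quartile, the split became 10 lower and 8 higher, beside 24.1% lower and 10.6% higher over all genes. The median became -0.13, beside -0.21 over all genes. The rest of chromosome 5 (806 genes at 1 CPM or more) had a median of -0.04, with 22.7% lower and 12.2% higher. In the adjoining 3 Mb at lower coordinates, 5 of 24 genes were lower and 5 higher, and in the adjoining 3 Mb at higher coordinates 5 of 16 were lower and 1 higher.

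The size of the difference, taken without its sign, was not ordered by distance from Kdm2b, with medians of 0.42 under 100 kb, 0.99 at 100 to 300 kb, 0.33 at 300 kb to 1 Mb and 0.64 beyond 1 Mb. Among the 7 genes under 100 kb from it, none was lower and 1 was higher, with a median log2 ratio of -0.10. Among the 6 at 100 to 300 kb, 2 were lower (P2rx7 and Setd1b) and 1 higher, with a median of -0.17. Of the 23 at 300 kb to 1 Mb, 3 were lower and 2 higher (median 0.01), and of the 21 beyond 1 Mb, 1 was lower and 6 higher (median 0.37). These counts on few genes stand beside 20.6% lower and 14.8% higher over all genes. Across the 57 genes other than Kdm2b, which share both libraries and are not independent, Spearman's rho between distance and the unsigned log2 ratio was -0.01 and Pearson's r was -0.06. Without P2rx7 rho was 0.03. The signed class medians depended on the setting. With distances taken between midpoints, the medians were -0.55 (3 genes), -0.16 (8), 0.10 (23) and 0.37 (23), higher in each class farther from Kdm2b, and with a minimum of 5 CPM that of the class at 100 to 300 kb was -0.79.

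**Figure D2:**
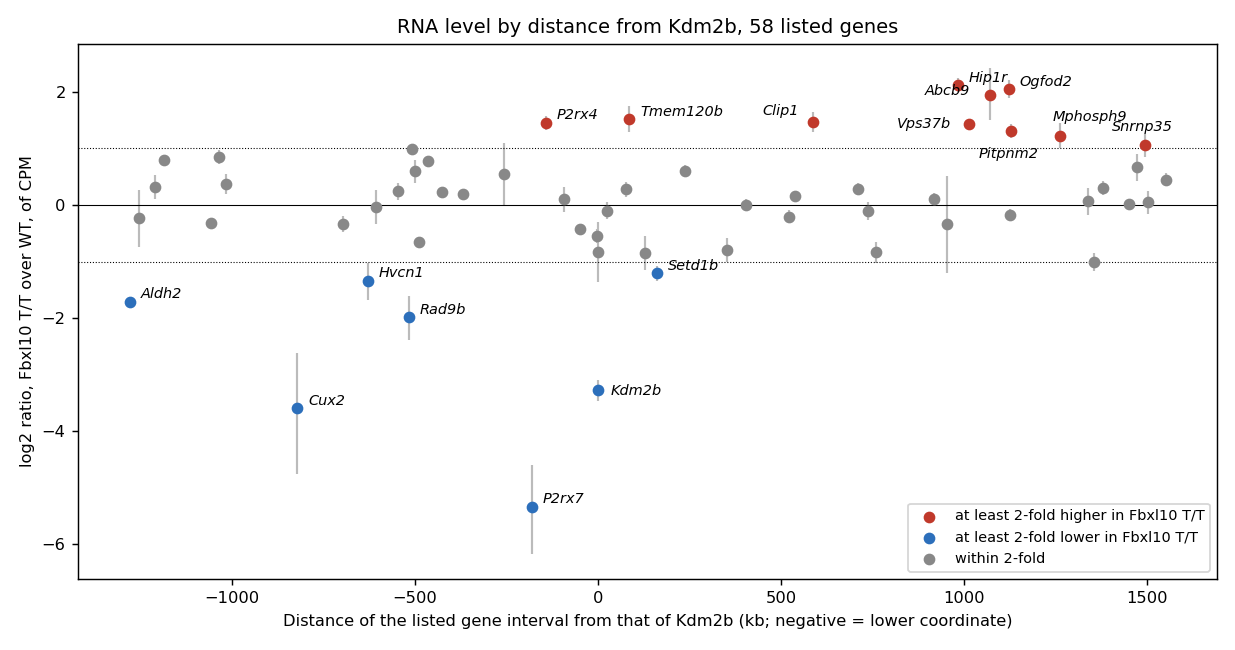
Each point is a listed gene, at its distance from Kdm2b (x axis, kb) and its log2 ratio of CPM in Fbxl10 T/T over WT without an added constant (y axis), with the 95% counting interval as a grey bar and dotted lines at 2-fold. Colours follow the 2-fold rule on CPM + 0.5, and P2rx7 (179.2 kb away) is the lowest point with P2rx4 above the upper dotted line beside it, while most higher genes lie about 1 Mb away on the right.

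**Figure D3:**
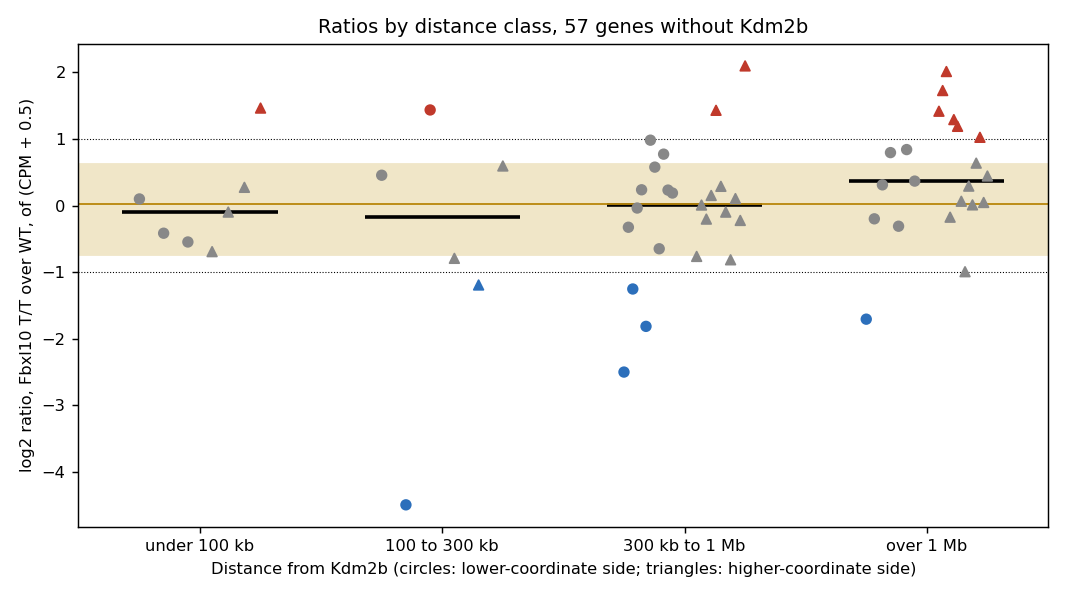
Log2 ratios of (CPM + 0.5), Fbxl10 T/T over WT, for the 57 genes other than Kdm2b in 4 distance classes, with a black bar at each class median and circles and triangles for the lower- and higher-coordinate side. Red and blue mark genes at least 2-fold higher and lower in Fbxl10 T/T, grey those in between, and the band shows the quartiles (-0.74 and 0.63) and the line the median (0.02) over all genes.

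On the lower-coordinate side of Kdm2b 5 of 25 genes were lower and 1 higher, and on the higher-coordinate side 1 of 32 was lower and 9 were higher, beside 20.6% lower and 14.8% higher over all genes. The share of lower genes on the lower-coordinate side was thus close to that over all genes, and the difference between the sides was not tested. The medians were nevertheless close, 0.10 and 0.13. The lower genes beyond 300 kb had genes between them that were within 2-fold, although only Tctn1 and Pptc7 lay between Hvcn1 and Rad9b. Rad9b, a paralogue of the DNA damage checkpoint gene Rad9a, had 2.80 CPM (69 reads) in Fbxl10 T/T and 11.1 CPM (265 reads) in WT, 3.97-fold lower (interval 3.04 to 5.25). It overlaps Pptc7 on the other strand by 1059 bases, and Pptc7 had 30.2 CPM in Fbxl10 T/T and 25.5 CPM in WT. Hvcn1, a voltage-gated proton channel gene, had 4.42 CPM (109 reads) in Fbxl10 T/T and 11.2 CPM (268 reads) in WT. It overlaps Tctn1, a gene of the ciliary transition zone, by 776 bases, and Tctn1 was at 7.70 CPM in Fbxl10 T/T and 7.91 CPM in WT. Cux2, a homeobox transcription factor gene 820.8 kb away, had 0.365 CPM (9 reads) in Fbxl10 T/T and 4.40 CPM (105 reads) in WT, and with so few reads its 12.1-fold lower level has an interval of 6.12 to 27.1. Aldh2, the mitochondrial aldehyde dehydrogenase gene at the lower end of the stretch, had 108.6 CPM in Fbxl10 T/T and 355.8 CPM in WT, 3.28-fold lower (interval 3.14 to 3.42).

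The higher genes on the other side lay mostly together. From Hip1r, 983.8 kb from Kdm2b, to Mphosph9, 6 of 7 consecutive listed genes were at least 2-fold higher in Fbxl10 T/T, over 354.8 kb, beside 14.8% of all genes. The run was picked after its values were seen and begins and ends at higher genes, so its count follows in part from that choice. Hip1r, which links clathrin-coated pits to actin, had 109.8 CPM (2711 reads) in Fbxl10 T/T and 25.3 CPM (604 reads) in WT, 4.34-fold higher (interval 3.97 to 4.75) and the highest log2 ratio of the 58 genes, 2.10. Ogfod2, which encodes a protein with an oxoglutarate- and iron-dependent oxygenase domain, had 66.4 CPM in Fbxl10 T/T and 16.1 CPM in WT, 4.13-fold higher. Abcb9, a lysosomal peptide transporter gene, had 8.22 CPM (203 reads) in Fbxl10 T/T and 2.14 CPM (51 reads) in WT. Vps37b, of the ESCRT-I complex that sorts membrane proteins for degradation, had 134.0 CPM in Fbxl10 T/T and 49.9 CPM in WT. Pitpnm2, a phosphatidylinositol transfer protein gene, had 78.7 CPM in Fbxl10 T/T and 31.9 CPM in WT, and Mphosph9 had 24.2 CPM in Fbxl10 T/T and 10.3 CPM in WT. Arl6ip4, between Ogfod2 and Pitpnm2, was the exception, with 65.4 CPM in Fbxl10 T/T and 73.9 CPM in WT. The summed level of these 7 genes was 486.7 CPM in Fbxl10 T/T and 209.5 CPM in WT. Outside this run, Clip1, which encodes a microtubule plus-end protein, had 41.2 CPM in Fbxl10 T/T and 15.0 CPM in WT, and Snrnp35, of the minor spliceosome, had 25.6 CPM in Fbxl10 T/T and 12.4 CPM in WT.

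By assigned role, 8 listed genes of the stretch were placed under chromatin or transcription. Of these, 3 were lower (Kdm2b, the gene the allele is named for, Cux2 and Setd1b) and none higher, with a median log2 ratio of -0.43. Without Kdm2b 2 of 7 were lower and the median was -0.10. These and the following counts on short lists stand beside 20.6% lower and 14.8% higher and a median of 0.02 over all genes. Kmt5a, listed as Setd8 and encoding the histone H4 lysine 20 monomethyltransferase, had 182.9 CPM in Fbxl10 T/T and 181.6 CPM in WT. Mlxip, a glucose-responsive transcription factor gene, had 59.7 CPM in Fbxl10 T/T and 59.4 CPM in WT. Kmt5a, Mlxip and Tctn1 had the log2 ratios nearest to 0. The 8 ion channel and calcium genes were divided, with 3 higher (Hip1r, Tmem120b and P2rx4) and 2 lower (P2rx7 and Hvcn1), although Hip1r and Tmem120b are not established channels. Atp2a2, the calcium pump of the endoplasmic reticulum, had the most reads of the stretch, 484.7 CPM in Fbxl10 T/T and 425.5 CPM in WT. Among 12 genes of the cell cycle, ubiquitin and proteasome list, Rad9b was lower, Clip1 and Mphosph9 were higher and 9 lay in between (median -0.28).

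None of the 11 genes on the vesicle traffic list was lower and 3 were higher (Abcb9, Vps37b and Pitpnm2), with a median of 0.64. All 3 belong to the run of higher genes described above. Arpc3, a subunit of the Arp2/3 actin nucleator kept on this list, had 212.4 CPM in Fbxl10 T/T and 124.2 CPM in WT. Of 5 genes on the RNA and translation list, Ogfod2 and Snrnp35 were higher and 3 lay in between. Ogfod2 is not an established gene of that group, nor is Arl6ip4 of the vesicle traffic list. Both listed cilia genes, Ift81 and Tctn1, lay within 2-fold. Of the 12 genes on none of these lists, Aldh2 was lower and 11 lay in between. Tmed2, a cargo receptor of the early secretory pathway at the upper end of the stretch, had 62.3 CPM in Fbxl10 T/T and 45.7 CPM in WT. The 26 genes outside the rule for named genes had log2 ratios between -0.99 and 0.98, so the closest to the 2-fold rule were Cdk2ap1 (20.6 CPM in Fbxl10 T/T, 41.5 CPM in WT) and Vps29 of the retromer (196.1 CPM in Fbxl10 T/T, 99.1 CPM in WT). By plain CPM Cdk2ap1 was 2.02-fold lower, and it fell short of the rule only through the added 0.5 CPM.

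Promoter sequences were matched for 49 of the 58 genes by symbol, and where a gene had several RefSeq starts the one with the most CG was used. CG is its own complement, so both strands are counted at once. It occurs at least once in 94.6% of all 32851 promoters of this length. P2rx7, with 8, had fewer CG than the promoters of all the other 48 genes, whose lowest count was 9, in Sh2b3. The median was 29 over the 49 genes and 8 over the 27025 genes of the RefSeq table, which include many non-coding and predicted genes. A promoter was matched for 4 of the 7 lower genes, and not for Aldh2, Hvcn1 and Setd1b. Beside P2rx7, Rad9b had 29, Cux2 48 and Kdm2b 49, so P2rx7 differed from these in this feature. Sh2b3, the gene nearest to P2rx7 in CG count, had a log2 ratio of 0.84. The 9 higher genes with a promoter had a median of 25 (range 14 to 53), and the 36 in between a median of 30 (range 9 to 51). Spearman's rho between CG count and log2 ratio was -0.15 over the 48 genes other than Kdm2b, a description of genes that share both libraries.

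**Figure D4:**
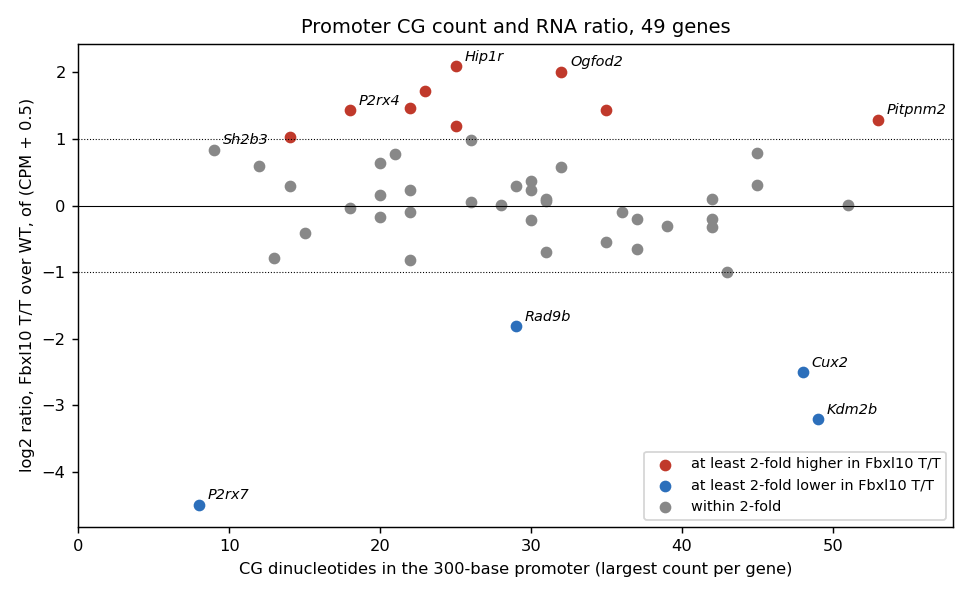
Number of CG dinucleotides in the 300-base RefSeq promoter (x axis, largest count per gene) against the log2 ratio of (CPM + 0.5), Fbxl10 T/T over WT (y axis), for 49 genes, with dotted lines at 2-fold. P2rx7 stands alone at the lower left with 8 CG and a log2 ratio of -4.50, while Kdm2b (49) and Cux2 (48) lie at the lower right.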

How the data were processed

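Per the labels' protocols, DNase-treated total RNA went into poly(A)+ libraries from an Illumina kit. The submitters' processing notes name mm9, TopHat 1.4.1, HTSeq 0.5.3p9 and edgeR, without roles. The authors deposited a normalised signal per gene and library, whose columns sum to 1098136 (Fbxl10 T/T) and 887645 (WT) and so are not plain CPM, and a log2 ratio of WT over Fbxl10 T/T. All values (100%) were whole multiples of 1 step per library within 0.01 reads, so reads were recovered (1 read = 0.0405 CPM in Fbxl10 T/T and 0.0419 in WT; 3 reads = 0.122 and 0.126 CPM). Of 24706 rows, 11086 repeats were used once. The table holds only genes with 28 or more reads in Fbxl10 T/T or 22 or more in WT, and others were not analysed here, which leaves 56 of the 68 protein-coding genes of GENCODE M21 between Aldh2 and Tmed2. All 58 identifiers matched a symbol in that release. The authors' deposited log2 ratios differed from recomputed ones, with the sign turned, by at most 0.00283 over the 9311 genes with 5 CPM or more in each library.

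The region, the gene lists, the rule for named genes and P2rx7 itself were chosen with earlier results of these data known. Distance is the gap between listed intervals. Genes named are Kdm2b, P2rx7, P2rx4, all within 300 kb, all past 2-fold, the 3 with the most CPM per library, the 3 nearest to equality, the first and last by coordinate, and up to 4 examples per role list, while Sh2b3, Pptc7, Cdk2ap1, Vps29 and Arl6ip4 were named after their values were seen. Of the genes this rule names, 1 is not reported here. With 1 library per genotype there was no test of the genotypes. An exact two-sided binomial test of the reads with Benjamini-Hochberg adjustment at 0.05, which compares the libraries only, was an alternative and called 5792 genes higher and 5580 lower (83.5% of all) and 46 of the 58 (79.3%). On simulated reads of 13620 genes for Fbxl10 T/T over WT, the 2-fold rule found 100% of 100 genes raised and 100% of 100 lowered 4-fold, called 0 of 12924 unchanged genes, and 95.2% of intervals held the true ratio; the simulation held counting error only. The software was Python 3.11.15 with scipy 1.17.1, pandas 2.3.3, matplotlib 3.10.9 and numpy 2.4.6.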

Additional observations from a re-analysis of the deposited data

How the results depend on the processing

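No paired analysis was possible because each genotype had a single library, so none could be left out either. The counts of 7 lower and 10 higher genes became 13 and 16 at 1.5-fold and 3 and 2 at 4-fold. With 0.1 CPM added in place of 0.5 they were 8 and 10, beside 22.2% lower and 15.7% higher over all genes. In a narrower window of 1 Mb around Kdm2b they were 3 and 2 of 18 genes, with a median log2 ratio of -0.15, and in a wider one of 5 Mb 15 lower and 15 higher of 91. Both stand beside 20.6% lower and 14.8% higher over all genes at the 2-fold rule. A common median turned the median to -0.03 and a common upper quartile to -0.13, since these shift all Fbxl10 T/T values by -0.13 and -0.24 on the log2 scale. The log2 ratio of P2rx7 was -3.99 with 1 CPM added. Its difference from the adjacent genes, -5.44 as planned against 1 on each side, was -4.83 against 3 on each side, also planned. With 0.1 and 1 CPM added, settings chosen after seeing the data, this difference was -6.11 and -4.89. A constant shrinks low genes by construction. Requiring the binomial test as well left 7 and 10. No minimum level, a minimum of 5 CPM and leaving out Kdm2b moved neither count by over 1.5-fold. The 4 distance-class medians stayed within their order-statistic intervals in every setting tried, but for the 2 nearest classes this could hardly fail. With 7 and 6 genes these intervals run from the lowest to the highest gene (-0.69 to 1.46 under 100 kb, -4.50 to 1.44 at 100 to 300 kb). Under 100 kb, -0.10 became -0.55 between midpoints, and at 100 to 300 kb -0.17 became -0.79 with a minimum of 5 CPM. Of the values of the 32 named genes under other constants or scalings, 90 were labelled as unchanged and 38 as moved, and no called gene changed sign. For P2rx7 and Cux2 the label does not rest on the counting interval of the plain ratio alone. Even their listed log2 ratios, with 0.5 CPM added, lie outside it. Reads limit Cux2 and P2rx7 most, with 9 and 15 in Fbxl10 T/T.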

Other observations

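Of the 788 genes in the table that were at least 10-fold lower in Fbxl10 T/T and had listed genes on both sides, 430 (54.6%) had at least 1 adjacent gene that was 2-fold lower as well, and 249 (31.6%) had both adjacent genes within 2-fold. Over all genes these shares were 36.5% and 42.4%. For the 10-fold count plain CPM was used, with Fbxl10 T/T levels under 3 reads set to 3 reads. Adjacent genes were judged by the listed ratio, with 0.5 CPM added and no minimum level. At least 1 adjacent gene was 2-fold higher for 167 of the 788 (21.2%), as P2rx4 is for P2rx7. Between the log2 ratios of adjacent listed genes, Spearman's rho was 0.15 over 13599 pairs on all chromosomes and 0.10 over the 57 pairs in the stretch around Kdm2b, descriptions of genes that share both libraries.

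The run from Hip1r to Mphosph9 was picked after its values were seen. Among 13497 windows of 7 consecutive listed genes on all chromosomes, 22 held at least 6 genes that were 2-fold higher in Fbxl10 T/T, and these fell into 10 separate regions on 8 chromosomes, 1 of them this run.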
